A study of Homo sapiens with 17 samples.

Results

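The hAT-Tip100 DNA transposons are the repeat loci whose family label in the deposited table is exactly hAT-Tip100. This gave 30410 copies of 32 subfamilies, out of 3594049 repeat loci in all. A further 3 labels with 1470 copies carry the family name with a question mark and were left out. The series asks how cancer cells keep retrotransposon RNA from provoking an immune response, and its RIP-seq libraries measure which RNA travels with the proteins of LINE-1 (L1). RIP-seq captures a protein out of a cell extract and reads the RNA bound to it or to its partners. The libraries were 4 of an ORF1p RIP, 4 of an ORF2p RIP, 3 of a mock IP and 6 of total RNA. The design names an embryonal carcinoma line, and no treatment, genotype or time separates the groups. The ORF2p RIP, mock IP and total RNA are labelled N2102Ep clone 2/A6, a single clone of that established human line, whereas the source of the ORF1p RIP reads embryonal: its other labels give N2102Ep, but no clone. The mock IP is described with mIgG; which antibody either RIP used was not looked into here.

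A hAT element moves as DNA: its transposase binds short inverted repeats at both ends, cuts the element out and pastes it elsewhere, with no RNA intermediate. Tip100 was named from a transposon of the morning glory, and the human relatives (Arthur, Zaphod, FordPrefect, MamTip, ORSL, MER45, MER91, MER97 and others) are fossils that no longer transpose. Of the L1 proteins, ORF1p coats the RNA, and ORF2p nicks genomic DNA and reverse-transcribes the RNA there. A read counted in a hAT-Tip100 copy belongs to whatever transcript runs through it, such as an intron or a long noncoding RNA, and the table does not say where that transcript began.

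The copies were short and old. Their median length was 146 bases (26 to 3151). The median of the table's divergence field was 250, against 231 for hAT-Charlie, 185 for TcMar-Tigger, 212 for L1 and 116 for Alu. No source states the unit of that field, so only its order is used. Of the copies, 24.6% overlapped the span of a RefSeq gene on the same strand, and 21.5% only spans on the opposite strand. Another 15.3% overlapped a span of unknown strand and none known to match, and 38.7% lay outside all spans. A copy over genes of both strands was counted as same strand. The share outside was 36.0% over all repeat loci.

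No genome was used, so the letters of most copies are not shown. RefSeq windows of 300 bases around gene starts (250 bases before and 50 after, build GRCh38.p14) overlapped 100 copies. A pair of windows is printed to show a copy ending upstream of an annotated start and a copy that spans one, 5′ to 3′ along the gene, with the bases inside the copy in capitals. DDX53, a cancer/testis RNA helicase gene, starts in the window chrX:22999710-23000009 on the plus strand, whose first 129 bases are the end of a MER96 copy that stops before the start itself. LINC02565, a long noncoding RNA, starts in the window chr18:57171145-57171444 on the minus strand, of which 160 bases belong to a MamTip2 copy.
DDX53: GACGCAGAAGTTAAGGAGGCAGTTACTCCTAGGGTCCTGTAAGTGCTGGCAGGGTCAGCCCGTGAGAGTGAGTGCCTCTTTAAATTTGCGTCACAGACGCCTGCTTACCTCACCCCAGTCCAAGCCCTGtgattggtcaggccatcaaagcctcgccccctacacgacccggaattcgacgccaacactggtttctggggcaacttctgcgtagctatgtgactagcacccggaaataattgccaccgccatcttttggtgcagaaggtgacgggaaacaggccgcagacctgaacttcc
LINC02565: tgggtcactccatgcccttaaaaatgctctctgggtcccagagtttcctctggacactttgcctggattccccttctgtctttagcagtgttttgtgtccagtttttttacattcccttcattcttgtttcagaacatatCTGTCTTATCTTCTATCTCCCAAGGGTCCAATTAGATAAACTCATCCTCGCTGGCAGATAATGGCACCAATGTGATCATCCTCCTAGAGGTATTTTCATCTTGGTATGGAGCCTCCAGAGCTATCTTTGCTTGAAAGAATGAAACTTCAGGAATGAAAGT

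Neither copy had enough reads to be tested singly, so their values are a description. The MER96 copy upstream of the DDX53 start had 0, 0, 0 and 0.114 CPM in the ORF1p RIP and 2.23, 3.20, 2.09 and 2.13 CPM in the ORF2p RIP. It had 2.32, 2.43 and 2.70 CPM in the mock IP. Total RNA split by its series, described below, with 4.60 and 4.13 CPM in series b and 0.756 to 1.13 CPM in series bl. CPM are counts per 1e6 repeat reads on the TMM scale. Every ORF1p RIP library lay under every library of the other groups. The MamTip2 copy at LINC02565 had 0 reads in all ORF1p RIP libraries, 0.343 to 1.72 CPM in the ORF2p RIP, 0.732 to 1.09 CPM in the mock IP and 0.341 to 0.792 CPM in total RNA. A count of 0 over the 4 ORF1p RIP libraries allows up to 0.0926 CPM, counting error only. Not every copy at a start was low in the ORF1p RIP. A Zaphod copy over the whole window of LOC105378694 (chr1:45909185-45909484, minus strand) averaged 0.881 CPM in the ORF1p RIP and 0.516 CPM in the ORF2p RIP, against 0.661 CPM in the mock IP and 1.47 CPM in total RNA.

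Some miRNAs also lie in hAT-Tip100 copies, and 4 RefSeq hairpins fell wholly inside one. Those of a pair of hairpins are printed as RNAs whose whole source lies in the family, with the seed (bases 2 to 8) in capitals and no seed shared among the 4. miR-652 lies in a MER91C copy (chrX:110055319-110055446) and miR-3680 in MER96 copies.
hsa-miR-652-5p: cAACCCUAggagagggugccauuca
hsa-miR-652-3p: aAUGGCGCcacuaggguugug
hsa-miR-3680-5p: gACUCACUcacaggauugugca
hsa-miR-3680-3p: uUUUGCAUgacccugggaguagg
The copy with miR-652 held 9 reads over all 17 libraries, and the copy with MIR3680-1 held 47, too few for a comparison.

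Reads in repeats ran from 7693841 to 19670774 per library, and the family took 908752 of them over all 17. HERVH-int, the internal part of a retrovirus that marks pluripotent cells, ranked 1 of 1080 repeat names by reads in total RNA and its end LTR7 ranked 43. Library 3 of the ORF1p RIP stood apart from the other libraries of its group, with a TMM factor of 0.808 against 1.03 to 1.05. Counts of calls are given with and without it. Total RNA came in series b (2 libraries) and bl (4 libraries) by their descriptions. Libraries of different series differed far more than those of the same series. Chi-square per degree of freedom of the counts per repeat label was 1342 to 2773 between series and 18.9 to 148 within. The main fits pool the series as 1 group, and that group enters the spread that all comparisons share. No label says that replicates were separate cultures; p-values then rest on library-to-library spread alone, and it may be technical.

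The reads were spread thinly. Of the copies, 7403 (24.3%) were at 0 in every library, against 17.5% of all loci, and 20985 had under 10 reads over all 17 libraries. The 10 copies with most reads held 7.90% of the family's reads and the first 100 held 25.1%.

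The family's share of repeat reads was lower in both RIPs than in the mock IP or total RNA. It was 0.387, 0.390, 0.315 and 0.397% in the ORF1p RIP libraries and 0.347, 0.348, 0.363 and 0.365% in the ORF2p RIP libraries. The mock IP libraries had 0.402, 0.419 and 0.422%, and total RNA had a lowest, median and highest of 0.419, 0.447 and 0.463%. No library of either RIP reached the lowest mock IP library, whether or not library 3 of the ORF1p RIP was counted. Without the 10 copies with most reads, the ORF1p RIP and mock IP libraries overlapped, while the ORF2p RIP libraries stayed lower. Means were 0.372 ± 0.0385% and 0.356 ± 0.00966% in the ORF1p and ORF2p RIPs (SD, n = 4 each), 0.414 ± 0.0105% in the mock IP (n = 3) and 0.445 ± 0.0144% in total RNA (n = 6). A share summed over chosen members gets no test here. In these bulk libraries, more cells with an RNA and more of it per cell cannot be told apart.

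hAT-Charlie, the larger hAT family of the genome, took another course in the ORF1p RIP. It held 4.85 ± 0.450% of repeat reads there and 3.31 ± 0.0897% in the ORF2p RIP, against 3.81 ± 0.116% in the mock IP and 4.33 ± 0.202% in total RNA. TcMar-Tigger, of the Tc1/mariner superfamily, had 3.93 ± 0.281% and 2.94 ± 0.168% in the ORF1p and ORF2p RIPs, against 3.15 ± 0.179% in the mock IP and 3.84 ± 0.370% in total RNA. In the ORF2p RIP both families thus averaged less than in the mock IP, so a lower share there was not particular to hAT-Tip100. As a share of DNA transposon reads alone, hAT-Tip100 stood at 3.61% in the ORF1p RIP and 4.75% in the ORF2p RIP, against 5.03% in the mock IP and 4.61% in total RNA.

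**Figure D1:**
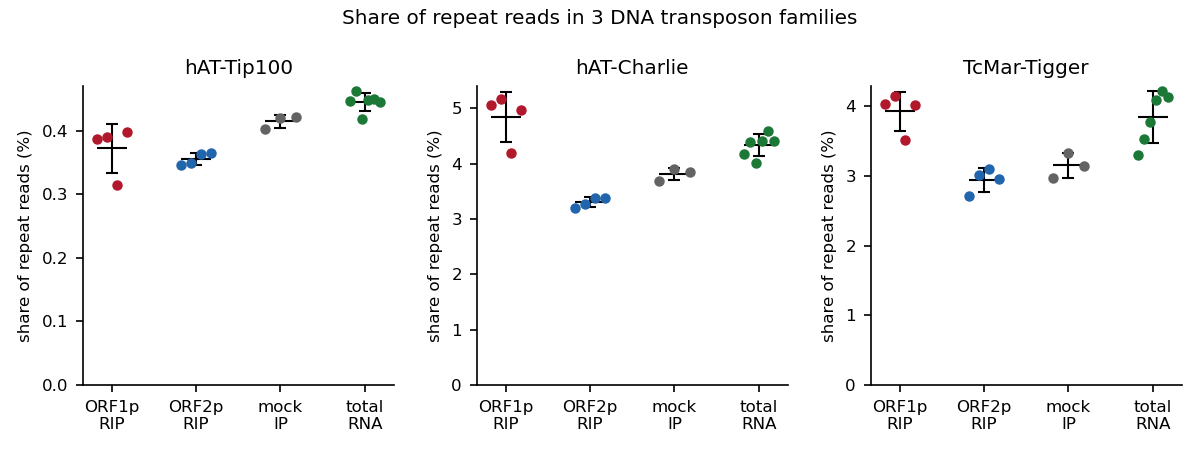
Share of repeat reads (%) in hAT-Tip100, hAT-Charlie and TcMar-Tigger in each of 17 libraries (points), with mean and SD per group (bars). For hAT-Tip100 the RIP libraries lie at 0.315 to 0.397% and the mock IP libraries at 0.402 to 0.422%; for hAT-Charlie and TcMar-Tigger every ORF1p RIP library is above every mock IP library.

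Where the family's reads lay differed most in the ORF1p RIP. Reads outside RefSeq gene spans were 15.5, 15.5, 15.4 and 15.04% of the family's reads in the ORF1p RIP. In the ORF2p RIP they were 31.3, 31.5, 31.4 and 30.8%. They were 31.4, 33.1 and 32.4% in the mock IP, and in total RNA 31.8 and 32.3% in series b and 39.1 to 39.6% in series bl. The ORF1p RIP libraries were all under those of the other groups. Reads of all repeats went the same way: 15.7 ± 2.64% of them lay outside spans in the ORF1p RIP, 29.8 ± 0.405% in ORF2p RIP libraries, against 29.7 ± 0.226% in the mock IP and 28.3 ± 2.21% in total RNA. The shift is therefore shared with repeats at large, and no test sets the family apart from them. Reads in copies on the strand of an overlapping gene made up 32.8% of the family's reads in the ORF1p RIP and 26.1% in the ORF2p RIP. They were 24.0% in the mock IP and 24.6% in total RNA. Reads in copies on the opposite strand were 30.8% in the ORF1p RIP and 20.04% in the ORF2p RIP, against 22.6% in the mock IP and 20.2% in total RNA. Strand here is that of the copy; whether reads were counted by strand is not stated.

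**Figure D2:**
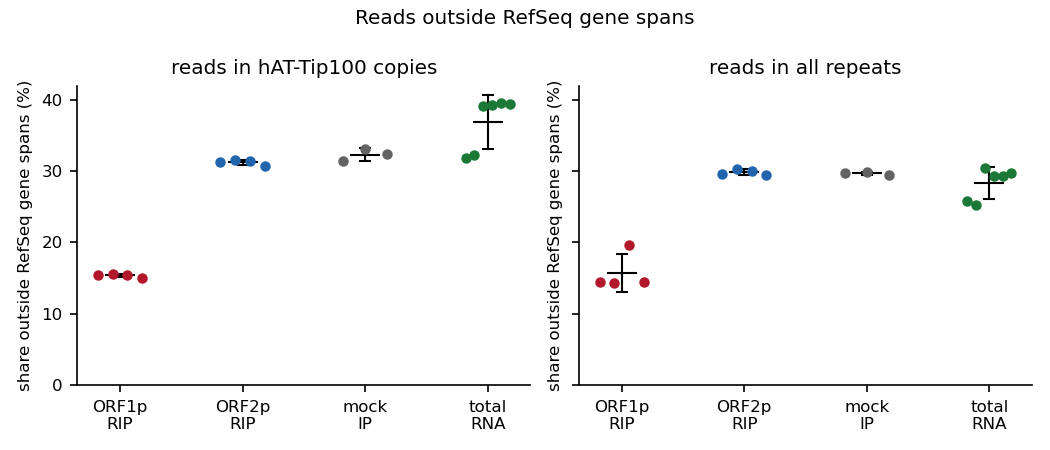
Share of reads (%) outside RefSeq gene spans per library (points), with mean and SD (bars), for hAT-Tip100 copies and for all repeats. ORF1p RIP libraries lie at 15.04 to 15.5% for the family and every other library at 30.8% or above.

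All 32 subfamilies had enough reads to be tested, by edgeR's quasi-likelihood test on counts summed per subfamily, over 1078 repeat labels with Benjamini-Hochberg adjustment. Every adjusted p below comes from that test or, for single copies, from the same test on 68420 loci, and a call is an adjusted p under 0.05.

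In the ORF1p RIP over the mock IP, 6 subfamilies rose and 15 fell. These are 18.75% and 46.88% of the 32, against 26% and 25.5% over all labels. The share of fallers was thus above that background, while the share of risers was not far from it. The median log2 change of the 32 was -0.28, against 0.02 over all labels. With a change of at least 2-fold as well, 2 rose and 2 fell, near the background (7.33% and 8.72% over all labels). Without library 3 of the ORF1p RIP 5 rose and 13 fell. In other old DNA families the counts ran otherwise: 51 of 75 hAT-Charlie subfamilies rose and 1 fell, 37 of 64 TcMar-Tigger subfamilies rose and 0 fell, and 4 of 8 hAT-Blackjack subfamilies rose and 0 fell. Of the old non-DNA families, 3 of 5 MIR labels rose and 0 fell, and 1 of 10 L2 labels rose and 1 fell. These counts are a description, and no test compares the families.

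The FordPrefect names fell furthest. FordPrefect had 31.7, 33.4, 33.0 and 33.5 CPM in the ORF1p RIP, against 69.8, 71.8 and 63.7 CPM in the mock IP. The groups did not overlap and the log2 change was -1.06 (SE 0.07, adjusted p = 1.37e-08). FordPrefect_a had 11.9, 8.72, 5.79 and 10.8 CPM in the ORF1p RIP, against 36.1, 36.3 and 37.0 CPM in the mock IP, a log2 change of -1.95 (SE 0.22, adjusted p = 2.19e-06). One copy in the span and on the strand of PDE3A, a cyclic nucleotide phosphodiesterase gene (chr12:20563703-20563772), held 54.1% of all FordPrefect_a reads. Without that copy the log2 change was -1.06.

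Of the MER45 and MER91 names, 5 of 7 fell and none rose. MER45R (log2 change -0.63, adjusted p = 0.000136), MER45B (-0.43, 0.000131) and MER91B (-0.42, 7.62e-05) had the smallest adjusted p. MER91B averaged 98.5 CPM in the ORF1p RIP and 132 CPM in the mock IP. Its copy in ZNF827 alone had 2.35 and 22.4 CPM of these, so that fall leans in part on 1 copy. Among the Arthur names, Arthur1B fell by 0.50 on the log2 scale and Arthur1C by 0.40, while Arthur1A rose. No Zaphod name was called. ORSL, the only called member of its name group, rose by 0.47 (SE 0.10, adjusted p = 0.00126). With library totals ORSL stood at 0.39 and MER45C at -0.65, and neither was called (adjusted p = 0.0514 and 0.0574). MER96 fell by 0.97, MamTip3 by 0.51, MER115 by 0.46, MER97c by 0.41, MamTip1 by 0.28 and MamRep4096 by 0.27.

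The strongest rise was that of UCON132b. It had 263, 244, 262 and 273 CPM in the ORF1p RIP, against 103, 99.5 and 106 CPM in the mock IP. The groups were far apart, with a log2 change of 1.34 (SE 0.10, adjusted p = 3.69e-08). Arthur1A had 139, 147, 145 and 152 CPM in the ORF1p RIP, against 69.9, 69.4 and 72.6 CPM in the mock IP, a log2 change of 1.04 (SE 0.07, adjusted p = 1.68e-08). Both rest largely on a single copy. A UCON132b copy in NID1 held 46.5% of that subfamily's ORF1p RIP reads, and an Arthur1A copy in SLC7A11 and its antisense gene SLC7A11-AS1 (chr4:138168108-138168275) held 42.5%. SLC7A11 encodes the cystine/glutamate transporter. Without these copies the log2 changes were 0.39 (adjusted p = 0.0111) for UCON132b and 0.21 (adjusted p = 0.0447) for Arthur1A.

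MER97a and MER97d rose as well, and MamTip2 by 0.45. MamTip2 averaged 580 CPM in the ORF1p RIP and 424 CPM in the mock IP. Its copy at chr16:83812894-83813109 had 82.2 and 2.55 CPM of these, and its copy in RAB3B 60.9 and 6.92 CPM. That rise thus leans on few copies, while of 23 tested copies 13 were higher and 9 lower. MER97a had 41.2, 32.5, 28.3 and 32.4 CPM in the ORF1p RIP, against 16.05, 17.7 and 18.5 CPM in the mock IP (log2 change 0.95, SE 0.20, adjusted p = 0.000744). MER97d had 55.8, 53.9, 75.3 and 48.2 CPM in the ORF1p RIP, against 39.1, 37.8 and 41.8 CPM in the mock IP (0.56, SE 0.18, adjusted p = 0.0146). Neither pair of groups overlapped. Of the 21 calls, 16 stayed and 5 were lost when each subfamily's leading copy was left out.

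Single libraries decided some of the smaller calls. MER97d was no longer called without ORF1p RIP 3 (adjusted p = 0.0534), MamTip1 without mock IP 2 (0.0549) and Arthur1C without mock IP 3 (0.0534). The MER115 call was lost without ORF1p RIP 3, mock IP 1 or mock IP 3 (0.0644 to 0.0669), and that of MER97c without ORF1p RIP 2 or 4 or mock IP 2 or 3 (0.0510 to 0.160). The MER45C call was lost without ORF1p RIP 1, 2 or 3 or any of the mock IP libraries (0.0510 to 0.108).

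**Figure D3:**
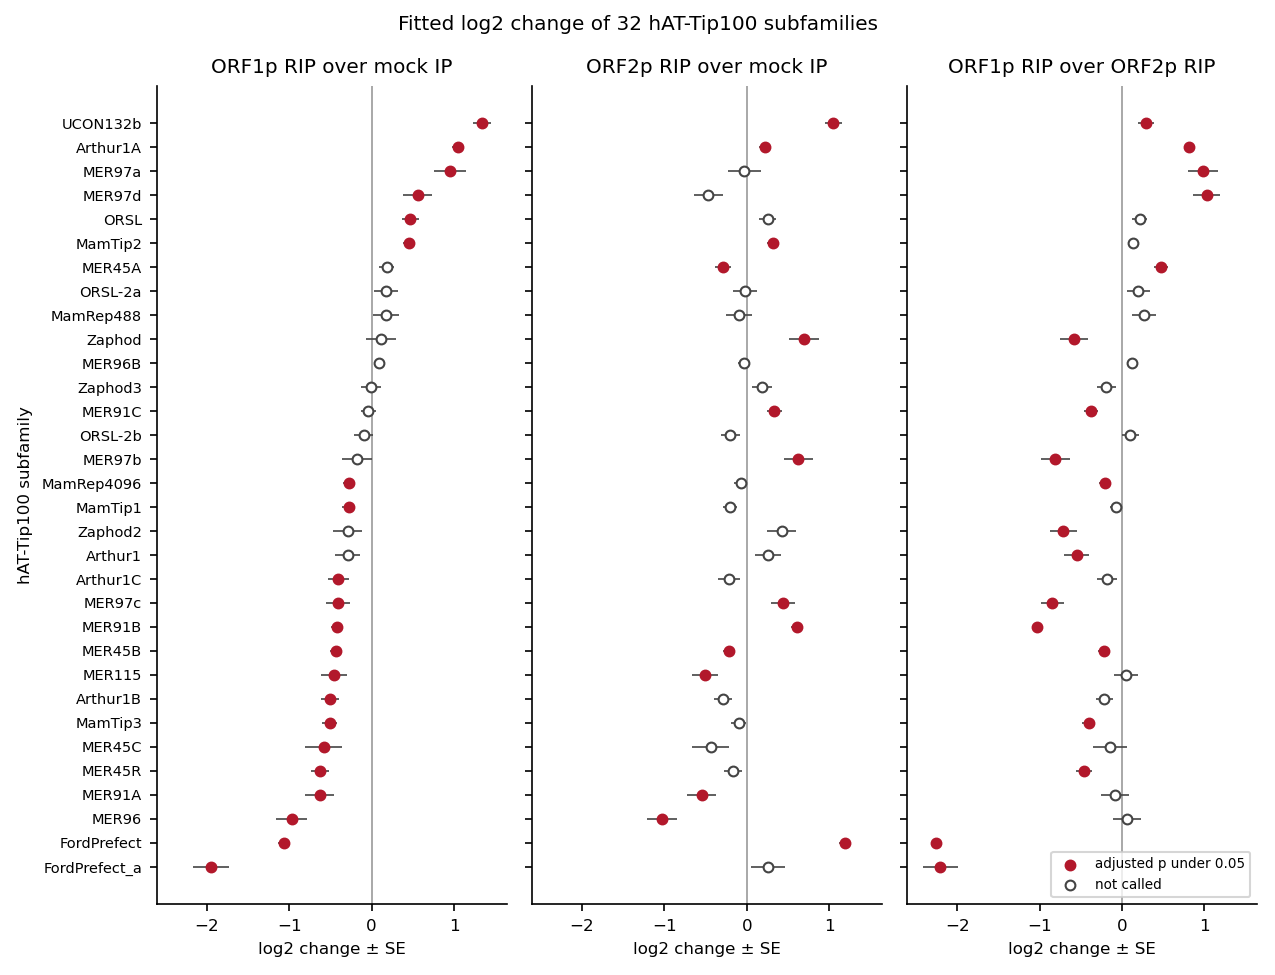
Fitted log2 change with SE (bars) of the 32 subfamilies in 3 comparisons, ordered by the first; filled points have an adjusted p under 0.05. FordPrefect and FordPrefect_a lie at -1.06 and -1.95 in the ORF1p RIP over the mock IP, and FordPrefect at 1.20 in the ORF2p RIP over the mock IP.

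The ORF2p RIP moved fewer subfamilies against the mock IP. Here 9 rose and 5 fell, against 16.9% higher and 15.5% lower over all labels; at 2-fold or more, 2 rose and 1 fell (6.68% and 1.48%). The median log2 change was -0.03, the same as over all labels. Scaling to library totals in place of TMM lowers every change in this comparison by about 0.31 on the log2 scale and gives 4 higher and 15 lower, so the split between rises and falls depends on the scaling. The median was then -0.34, both for the family and over all labels. FordPrefect had 150.3, 159, 161 and 157 CPM in the ORF2p RIP, against the mock IP values above, a log2 change of 1.20 (SE 0.07, adjusted p = 7.09e-09). It thus rose in the ORF2p RIP and fell in the ORF1p RIP; these comparisons share the mock IP libraries. FordPrefect_a was not called (0.25, SE 0.21).

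UCON132b had 208, 218, 219 and 207 CPM in the ORF2p RIP, also above every mock IP library (log2 change 1.05, SE 0.10, adjusted p = 1.92e-06). Its NID1 copy held 1.80% of those reads. All 5 of its tested copies on chromosome 7 were called higher than the mock IP, with means of 5.48 to 43.6 CPM in the ORF2p RIP, against 0.947 to 4.76 CPM in the mock IP; whether they share reads was not tested. MER91B had 208, 186, 204 and 208 CPM in the ORF2p RIP, against 136, 130.5 and 130.1 CPM in the mock IP (0.61, SE 0.07, adjusted p = 8.18e-06). A copy in ZNF827 held 51.4% of these reads, and without it the log2 change was -0.13 and not called. Zaphod had 356, 378, 384 and 355 CPM in the ORF2p RIP, against 213, 228 and 240.0 CPM in the mock IP (0.70, SE 0.18, adjusted p = 0.00777). Without its leading copy in ZNF33A the change was 0.30 and not called.

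MER97b rose by 0.63, MER97c by 0.44, MER91C by 0.33, MamTip2 by 0.32 and Arthur1A by 0.23. MER96 fell by 1.03 (SE 0.18, adjusted p = 0.000567), MER91A by 0.55, MER115 by 0.51, MER45A by 0.29 and MER45B by 0.21. Only 4 of the 14 calls stayed, and 10 were lost, when each subfamily's leading copy was left out. The lower calls were also thin across libraries. All of them but MER96 were lost on leaving out 1 library: MER91A, MER45A, MER45B and MER115 without mock IP 1 or 3 (adjusted p 0.0636 to 0.131), and each of them also without at least 1 ORF2p RIP library (0.0552 to 0.103). The number of lower calls was 1 without mock IP 3, 2 without mock IP 1 or ORF2p RIP 2, and 3 without mock IP 2 or ORF2p RIP 3 or 4. Among the rises, Arthur1A was lost without ORF2p RIP 2 or 4 or any mock IP library (0.0505 to 0.0847), MER97b without mock IP 2 (0.0558) and MER97c without ORF2p RIP 4 or mock IP 1 or 2 (0.0777 to 0.147).

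Set directly against the ORF2p RIP, the ORF1p RIP had 5 subfamilies higher and 13 lower, against 28.2% and 27.9% over all labels. At 2-fold or more 1 was higher and 3 lower (6.59% and 12.3%). The median log2 change was -0.17, against 0.04 over all labels. Library totals in place of TMM gave 11 higher and 8 lower, with the median of all labels moved by 0.22. The lower ones were led by FordPrefect (-2.25, SE 0.07, adjusted p = 8.28e-13) and FordPrefect_a (-2.21, SE 0.21, adjusted p = 2.41e-07), whose libraries did not overlap between the RIPs. MER91B followed at -1.03, MER97c at -0.85, MER97b at -0.81, Zaphod2 at -0.71, Zaphod at -0.58 and Arthur1 at -0.55. MER97d (1.03, SE 0.17, adjusted p = 6.52e-05), MER97a (0.98), Arthur1A (0.82), MER45A (0.47) and UCON132b (0.29) were higher. UCON132b turned to -0.71 (adjusted p = 3.86e-05) without its NID1 copy. Of the 18 calls, 15 stayed without the leading copies, MER91B (-0.15, adjusted p = 0.0652) and MER91C (-0.08, adjusted p = 0.495) were lost, and this 1 turned. FordPrefect_a then stood at -0.98 (adjusted p = 0.000992). The call of MamRep4096 (-0.20) was lost without ORF1p RIP 2 or 4 or ORF2p RIP 1 or 3 (adjusted p 0.0602 to 0.0708).

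Total RNA gives a second baseline. Over it, in the ORF1p RIP 9 rose and 13 fell (29.1% and 28.4% over all labels; at 2-fold or more 1 and 2, against 9.09% and 8.26%), with 10 and 15 against series bl alone and 6 and 12 against series b alone. Library totals gave 5 and 17. UCON132b (1.35, SE 0.08, adjusted p = 2.02e-09), Arthur1A (0.93) and ORSL (0.82) rose most, and FordPrefect_a (-2.32) and FordPrefect (-1.29) fell most. In the ORF2p RIP 9 rose and 6 fell (18% and 20.5% over all labels; at 2-fold or more 1 and 0, against 5.1% and 1.3%), led by UCON132b (1.05), FordPrefect (0.97, SE 0.06, adjusted p = 3.58e-09) and MER91B (0.72). Library totals gave 3 higher and 21 lower in this comparison, so its split too depends on the scaling. Without ORF2p RIP 3 the lower calls numbered 3.

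With both series of total RNA pooled, the mock IP itself differed from total RNA in 1 subfamily, MER96. Over all labels 1.76% were higher and 0.649% lower (0.742% and 0% at 2-fold or more). The count depends on this pooling, as the fits at the end of this paragraph show. MER96 had 180.0, 153 and 169 CPM in the mock IP, against 115 and 110 CPM in series b of total RNA and 64.3 to 74.6 CPM in series bl. Its log2 change was 1.001 (SE 0.17, adjusted p = 0.00392). No other library group reached the mock IP level, so the falls of MER96 in both RIPs stand beside a mock IP that is itself high. By edgeR 0 subfamilies were called lower, and 8 were higher and 4 lower at an unadjusted p under 0.05; DESeq2 called 4 higher and 2 lower. Against series bl alone 9 were higher and 10 lower. Without total RNA 1 the counts were 7 and 6 and without total RNA 2 they were 7 and 4, both libraries of series b, and without ORF1p RIP 3, through the shared spread, 2 and 0.

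Single copies show where these sums come from. Of the 30410 copies, 264 of 30 subfamilies had enough reads (a min.count of 50), and they held 35.4% of the family's reads. A copy could pass on the strength of the group in which it is high, so the counts and p-values of copies below describe these copies and not the family. In the ORF1p RIP over the mock IP 87 were higher and 137 lower, against 36.9% and 37.1% over all loci tested. Their median log2 change was -1.42, against 0.13 over all loci. Setting copies at 0 at their bound left it the same, but those copies lie away from the median, so this could not move it. At 2-fold or more 86 were higher and 136 lower (36.1% and 36.4%). A fit of these groups alone tested 96 copies, with 51 higher and 34 lower. The read filter was set again on those libraries, so which direction leads depends on the copies that pass it. Without library 3 of the ORF1p RIP 282 copies were tested, 83 higher and 156 lower. In the ORF2p RIP over the mock IP 56 were higher and 27 lower (23.1% and 15.4% over all loci), with a median of 0.02, and at 2-fold or more 53 and 25 (22.7% and 14.8%). With library totals the counts were 45 and 56. The ORF1p RIP over the ORF2p RIP had 71 higher and 145 lower (32.4% and 41.8% over all loci), with a median of -1.72 against -0.33, and at 2-fold or more 67 and 144 (31.2% and 40.9%). For comparison, 1261 of 2822 hAT-Charlie copies rose and 901 fell in the ORF1p RIP over the mock IP, and 1178 and 913 of 2947 TcMar-Tigger copies. Of the hAT-Blackjack copies 55 of 159 rose and 77 fell, with a median log2 change of -0.87, of the MIR copies 1750 of 4097 rose and 1539 fell, and of the L2 copies 1897 of 5614 rose and 2201 fell.

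The copies called in the ORF1p RIP differed in where they lie. Of the 87 higher ones 69.0% lay in spans of protein-coding genes and 18.4% outside all spans. Of the 137 lower ones 22.6% lay in protein-coding spans and 59.8% outside, and 40.9% of all 264 lay outside. Higher copies had a median length of 214 bases and lower ones 363. No test was made of these shares, since copies of one transcript share it. They were not taken over called loci of all repeats. Reads of all repeats also lay less outside spans in the ORF1p RIP (15.7%, against 29.7% in the mock IP). The split is thus not shown to be particular to the family. Of the 264, 39 copies had 0 reads in all ORF1p RIP libraries, against 4 in the ORF2p RIP, 1 in the mock IP and none in total RNA. The ORF1p RIP libraries were among the smallest, with 7693841 to 9125527 repeat reads. The same count was not made over all loci tested, so it is not shown to be particular to the family.

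The subfamilies were mixed inside. Zaphod had 33 copies tested, of which 10 rose and 20 fell in the ORF1p RIP over the mock IP. Arthur1B had 3 higher and 21 lower of 26, and Arthur1 had 7 higher and 15 lower of 26. MamTip2 had 13 higher and 9 lower of 23. FordPrefect had 1 higher and 7 lower of 10, and all 3 copies of FordPrefect_a were lower. UCON132b had 5 higher and 2 lower of 9 in the ORF1p RIP, and 7 higher and 1 lower in the ORF2p RIP.

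**Figure D4:**
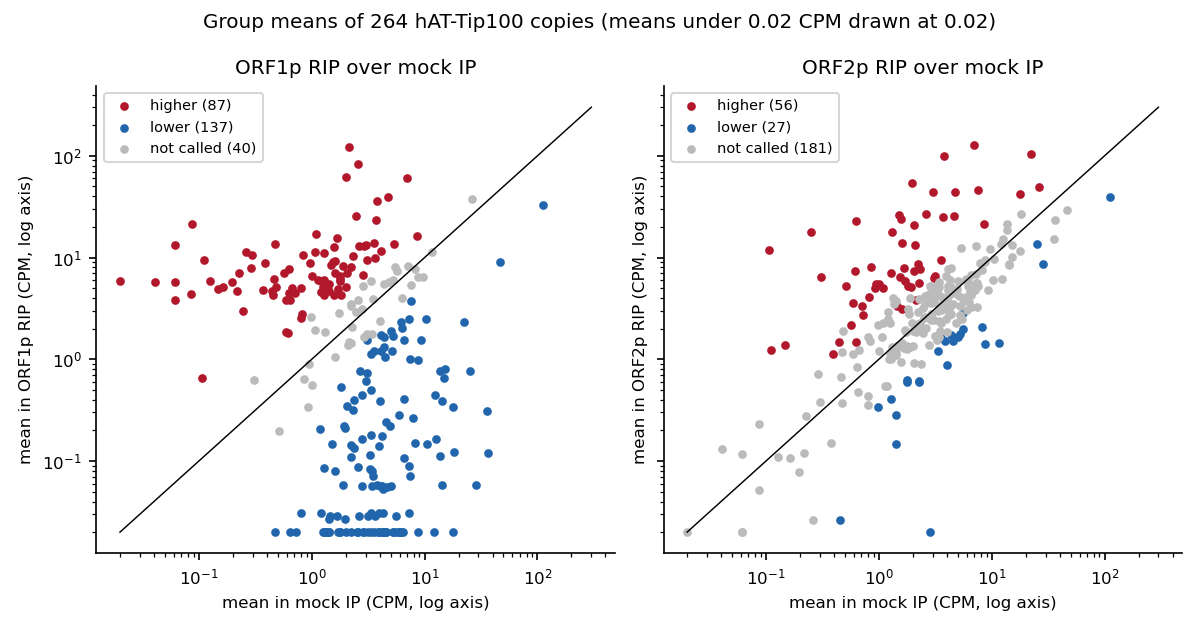
Mean CPM of 264 copies in the ORF1p RIP (left) and the ORF2p RIP (right) against the mock IP, on log axes, coloured by call; the line marks equal levels. In the left panel 137 copies are lower, with a row of copies at 0, and 87 higher; in the right panel 27 are lower and 56 higher.

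By the mean of the 4 group means in CPM, not per length, the first copy was a MER96 of 68 bases (chr3:54633036-54633103, minus strand) in the spans of CACNA2D3, a calcium channel subunit gene, and ESRG, a long noncoding RNA of pluripotent cells. It had 33.0, 30.5, 41.2 and 27.5 CPM in the ORF1p RIP, 48.7, 37.9, 30.2 and 39.1 CPM in the ORF2p RIP and 124, 103 and 110 CPM in the mock IP. Total RNA had 49.5 and 47.1 CPM in series b and 24.9 to 33.4 CPM in series bl. The mock IP was above all other libraries, and the copy led the family in the mock IP alone. The log2 change over the mock IP was -1.76 in the ORF1p RIP (adjusted p = 3.16e-05) and -1.53 in the ORF2p RIP (adjusted p = 0.000478). The copy held 50.8% of MER96 reads, and without it MER96 was called in neither RIP (-0.14 and -0.32).

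A MamTip2 copy in RAB3B, a gene for a small GTPase of vesicle release (chr1:51914260-51914355, the gene's strand), was high in both RIPs. It had 48.7, 44.2, 94.8 and 55.9 CPM in the ORF1p RIP and 115, 146, 132 and 122 CPM in the ORF2p RIP, against 6.35, 8.02 and 6.38 CPM in the mock IP. The ORF2p RIP was highest, then the ORF1p RIP, then the mock IP, without overlap: the log2 change over the mock IP was 3.13 in the ORF1p RIP (SE 0.39, adjusted p = 5.03e-07) and 4.21 in the ORF2p RIP (SE 0.41, adjusted p = 3.27e-07), and that between the RIPs was -1.08 (adjusted p = 0.00473). A Zaphod copy in ZNF33A, a KRAB zinc finger gene (chr10:38057532-38057653, opposite strand), was alike. It had 26.5, 27.4, 58.1 and 32.6 CPM in the ORF1p RIP and 107, 104, 86.0 and 103 CPM in the ORF2p RIP, against 3.42, 3.16 and 4.73 CPM in the mock IP (3.26 and 4.73 over the mock IP, adjusted p = 5.03e-06 and 1.14e-06).

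The RIPs parted over the next pair. The UCON132b copy in NID1, the gene of the basement membrane protein nidogen-1 (chr1:235977054-235977230, opposite strand), had 126, 112, 123 and 124 CPM in the ORF1p RIP. It had 5.21, 2.83, 2.51 and 4.80 CPM in the ORF2p RIP and 2.14, 2.00 and 2.25 CPM in the mock IP. The ORF1p RIP was far above both groups, with a log2 change of 5.82 over the mock IP (SE 0.38, adjusted p = 1.47e-10) and 4.97 over the ORF2p RIP (SE 0.32, adjusted p = 1.23e-10). Its ORF2p RIP call over the mock IP (0.85, adjusted p = 0.0364) was lost without ORF2p RIP 1 or 4 or any mock IP library (0.0853 to 0.117). The MER91B copy in ZNF827, a zinc finger gene (chr4:145840257-145840418), was the reverse: 1.17, 1.74, 3.06 and 3.42 CPM in the ORF1p RIP and 105, 91.8, 105 and 113 CPM in the ORF2p RIP, against 22.9, 23.0 and 21.2 CPM in the mock IP. It fell in the ORF1p RIP (-3.26, adjusted p = 5.31e-08) and rose in the ORF2p RIP (2.21, adjusted p = 3.49e-05), and between the RIPs the change was -5.47 (SE 0.36, adjusted p = 1.49e-10).

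**Figure D5:**
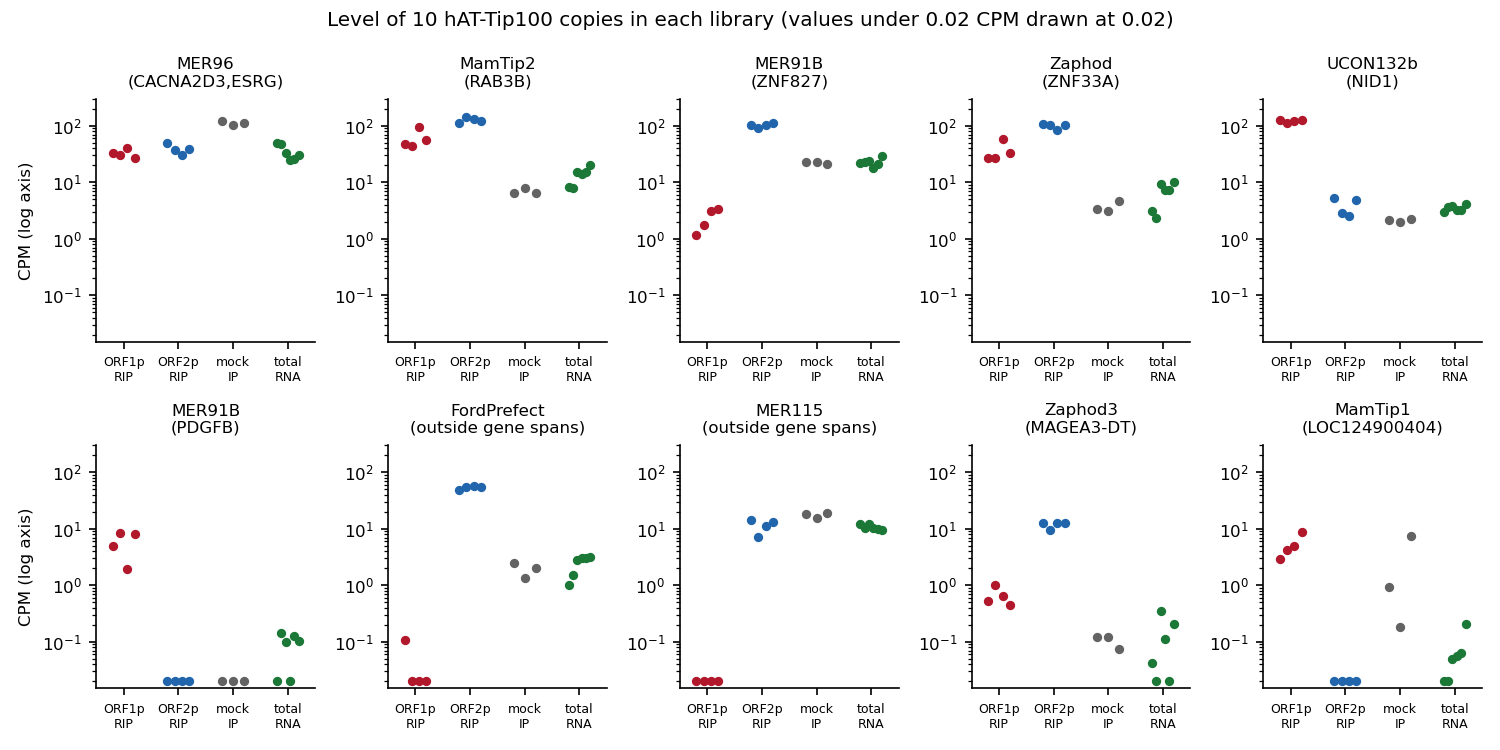
CPM (log axis) of 10 named copies in each library, by group, with the RefSeq gene span of each copy in its title; values under 0.02 are drawn at 0.02. UCON132b in NID1 is high in the ORF1p RIP alone (112 to 126 CPM), and MER91B in ZNF827 and the FordPrefect copy outside gene spans are high in the ORF2p RIP and low in the ORF1p RIP.

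The naming rule ranks copies by fitted change and so favours those near 0 in the other group. The largest rises in the ORF1p RIP over the mock IP were such copies, almost silent elsewhere. They passed the read filter through the ORF1p RIP alone, so their p-values and bounds are a description of copies picked this way. A MER91B copy in PDGFB, a growth factor gene (chr22:39224190-39224380), had 4.91, 8.35, 1.93 and 8.09 CPM in the ORF1p RIP and 0 in every ORF2p RIP and mock IP library, so it was at least 93.1-fold higher than the mock IP (adjusted p = 5.89e-06) and at least 84.1-fold higher than the ORF2p RIP (adjusted p = 2.68e-06). These bounds use a floor of 3 counts over the group. In total RNA it had up to 0.146 CPM. A MamTip2 copy within TUNAR, a pluripotency transcript (chr14:95924814-95925005, the gene's strand), had 26.4, 25.2, 8.85 and 24.6 CPM in the ORF1p RIP, against 0.183, 0 and 0.0751 CPM in the mock IP. All ORF1p RIP libraries were above it, with a log2 change of 7.79 (adjusted p = 3.40e-08), which became 8.94 without mock IP 1; over the ORF2p RIP it was 6.54, and 7.32 without ORF2p RIP 1.

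A MER97a copy outside gene spans whose nearest gene was also TUNAR (chr14:95948412-95948997) had 8.96, 5.48, 3.70 and 4.79 CPM in the ORF1p RIP, against 2 counts in the mock IP, a ratio of 138 (95% counting interval 37.6 to 1144; adjusted p = 7.15e-06). Over the ORF2p RIP its log2 change of 5.43 rose to 9.30 without ORF2p RIP 3, the only library of that RIP with reads in it. A MamTip2 copy in LOC105373134, a long noncoding RNA (chrX:13160558-13160821), had 12.6, 13.2, 16.1 and 10.8 CPM in the ORF1p RIP, against 3 counts in the mock IP and 0 in the ORF2p RIP. The ratio over the mock IP was 199 (67.7 to 969; adjusted p = 3.99e-08), and over the ORF2p RIP it was at least 179.7-fold higher (adjusted p = 6.09e-09). Its fitted log2 change over the mock IP of 7.48 became 8.27 without mock IP 1. The named copies at TUNAR share a neighbourhood and may share a transcript.

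The largest falls in the ORF1p RIP were copies with 0 reads in all its libraries, which the ranking by fitted change likewise favours. A MER115 copy outside gene spans (chr2:66257943-66258394) had 14.6, 7.13, 11.4 and 13.2 CPM in the ORF2p RIP and 18.6, 15.5 and 19.4 CPM in the mock IP, so the ORF1p RIP was at least 191-fold lower than the mock IP (adjusted p = 2.64e-10) and at least 129-fold lower than the ORF2p RIP (adjusted p = 4.44e-10). A MER45B copy, also outside (chr9:80163868-80164932), was at least 130.5-fold lower than the mock IP (adjusted p = 8.12e-09), where it had 7.99, 14.9 and 13.6 CPM. An Arthur1B copy in ZNF385D, a zinc finger gene, on its strand (chr3:21613076-21613528), and an Arthur1 copy outside (chr12:12000227-12000922) were at least 94.9-fold and 68.5-fold lower (adjusted p = 1.57e-08 and 1.29e-08). In total RNA each of the 4 was present in every library, with lowest values of 9.42, 11.3, 7.44 and 3.59 CPM. In the ORF2p RIP none of the 4 was called against the mock IP (log2 changes -0.62 to 0.16).

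In the ORF2p RIP over the mock IP, the largest rises by the naming rule were a Zaphod3 copy, a pair of Arthur1 fragments and a FordPrefect copy. They passed the read filter mainly through the ORF2p RIP, and the rule asked for libraries that do not overlap. Their p-values and lack of overlap are therefore a description of copies picked this way. The Zaphod3 copy lies in MAGEA3-DT, the divergent transcript of the cancer/testis antigen gene MAGEA3 (chrX:152665337-152665457, the gene's strand). It had 12.6, 9.46, 12.7 and 12.8 CPM in the ORF2p RIP, against 0.122, 0.121 and 0.0751 CPM in the mock IP. With no overlap the log2 change was 6.67 (SE 0.72, adjusted p = 9.40e-07). In the ORF1p RIP it had 0.533, 0.996, 0.644 and 0.456 CPM, also above the mock IP (2.50, adjusted p = 0.00633) and below the ORF2p RIP (-4.17, adjusted p = 8.64e-07).

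Neighbouring Arthur1 fragments in MAP4K3-DT, a divergent noncoding transcript (chr2:39599301-39599687 and chr2:39599706-39600245, both on the gene's strand), rose by 5.15 and 6.07 in the ORF2p RIP (adjusted p = 1.50e-06 and 3.57e-06) and by 2.79 and 3.47 in the ORF1p RIP. They may share a transcript and are then not separate observations. The first had 21.8, 22.7, 23.0 and 23.4 CPM in the ORF2p RIP, against 0.732, 0.486 and 0.676 CPM in the mock IP. Without mock IP 1 the changes of the other were 6.67 and 4.07, and without ORF1p RIP 3 its ORF1p RIP change was 2.79 and that between the RIPs -3.28 in place of -2.60.

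The FordPrefect copy that led its subfamily lies outside gene spans (chr2:184049084-184050694, 1611 bases, minus strand). It had 48.7, 56.0, 57.2 and 55.2 CPM in the ORF2p RIP, against 2.50, 1.34 and 2.03 CPM in the mock IP and a lowest, median and highest of 1.02, 2.92 and 3.18 CPM in total RNA. The log2 change over the mock IP was 4.79 (SE 0.48, adjusted p = 4.58e-07). In the ORF1p RIP 1 count was found in library 1 and 0 in the others, so the mock IP was higher by a ratio of 63.1 (95% counting interval 11.05 to 2521; adjusted p = 9.61e-07) and the ORF2p RIP by 1761 (316 to 69580; adjusted p = 1.01e-10). Without ORF1p RIP 1 the fitted log2 changes of -5.62 and -10.41 were -7.75 and -12.54. The copy held 34.6% of FordPrefect reads in the ORF2p RIP. Without it FordPrefect still rose there (0.66, adjusted p = 1.61e-05) and fell in the ORF1p RIP (-1.10, adjusted p = 2.15e-08).

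Of the copies lower in the ORF2p RIP than in the mock IP, a MamTip2 copy in JAZF1, a zinc finger gene (chr7:28170685-28170828), had 2.34, 1.35, 0.837 and 1.17 CPM in the ORF2p RIP, against 8.60, 8.62 and 8.94 CPM in the mock IP (log2 change -2.62, adjusted p = 6.23e-05). It fell in the ORF1p RIP too (-3.12, adjusted p = 2.82e-06). A MER97d copy in SCAF4, a gene for an RNA polymerase II-binding factor (chr21:31723501-31723784), fell by 3.04 in the ORF2p RIP (adjusted p = 0.00243). In the ORF1p RIP it had 2.99, 6.23, 32.2 and 3.99 CPM, against 13.4, 8.503 and 13.2 CPM in the mock IP; it was not called there (-0.06), but without ORF1p RIP 3 it was (-1.41, adjusted p = 0.0306), and the change between the RIPs was 2.98 with all libraries and 1.63 without that one.

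A MamTip1 copy in LOC124900404 (chr1:98182729-98182928, opposite strand) had 0 reads in the ORF2p RIP and 0.915, 0.182 and 7.36 CPM in the mock IP, a group that 1 library dominates, and was at least 34.9-fold lower (adjusted p = 0.000472). Without mock IP 3 its fitted change of -8.23 was -5.90 (adjusted p = 0.00568), and in the ORF1p RIP, where it had 2.88 to 8.78 CPM, the call then became higher (3.23, adjusted p = 0.00482). The ORF1p RIP was at least 72.5-fold above the ORF2p RIP (adjusted p = 2.81e-05). A MER91A copy in MACC1-OT1 (chr7:20076709-20076804) fell by 2.11 in the ORF2p RIP (adjusted p = 0.0173) and by 3.25 in the ORF1p RIP (adjusted p = 0.000632). The first call was lost without mock IP 3 (adjusted p = 0.0541) and its change was -3.08 without ORF2p RIP 4; the other was -3.94 without ORF1p RIP 1, and without ORF2p RIP 2 the difference of the ORF1p RIP over the ORF2p RIP was called too (-1.51, adjusted p = 0.0469).

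Between the RIPs, the copies named for being higher in the ORF1p RIP were those in LOC105373134, PDGFB and LOC124900404 and a MER115 copy whose nearest gene was also LOC124900404 (chr1:98308299-98308604). The last had 4.48, 5.73, 4.18 and 8.55 CPM in the ORF1p RIP and 0 in the ORF2p RIP, at least 81.1-fold higher (adjusted p = 2.06e-07). Over the mock IP, with 3 counts, its ratio was 89.8 (30.3 to 439), and the fitted log2 change of 6.29 was 7.08 without mock IP 1. Those lower in the ORF1p RIP were the MER45B copy on chr9 (at least 141-fold), the FordPrefect copy, the MER115 copy on chr2 and a MER97c copy in KIAA0825, on the opposite strand (chr5:94296859-94297401). That one had 0 reads in the ORF1p RIP and 7.77, 9.09, 11.9 and 8.98 CPM in the ORF2p RIP, at least 101.5-fold lower (adjusted p = 7.80e-09). Over the mock IP, with 3.60, 3.28 and 3.83 CPM, it rose by 1.40 in the ORF2p RIP (adjusted p = 0.0122), a call lost without mock IP 2 (adjusted p = 0.0517).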

How the data were processed

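The authors deposited 1 table of repeat loci. Its values look like expected counts (not all whole, never below 0), a unit read from the deposited numbers. Per the submitters' processing notes the aligner was STAR and the build hg38. Neither the counter, nor its use of strand, nor how it shared reads between copies is stated, so near-identical copies are uncertain. Of 60 value columns, 17 matched a labelled sample and 43 entered no step. Counts were summed per label (subfamily, family and class) and rounded, filtered with filterByExpr (min.count 10; loci 50), scaled by TMM over repeat reads and tested with edgeR 4.0.16 in R 4.3.3, group as the only term, over all 17 libraries; the scripts were tested on simulated data. Locus fits used the subfamily table's library sizes. Copies were placed in 59788 RefSeq gene spans, of which 27302 had a strand; exons were not used. Starts were moved by 1.

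The family, lists, named-copy rule and alternatives were chosen with earlier results of these data known. Named copies were the 5 of highest mean CPM and, per comparison, the 4 higher and 4 lower with the largest called change, a group mean of 2 CPM or more and libraries that did not overlap. SE is the log2 change over the square root of F. Depth was 7693841 to 19670774 repeat reads per library; intervals cover counting error only. 3 member names (MER96, MER96B and MamRep4096) also occur under another family label, with 9, 78 and 101 copies that were not counted. Alternatives were library totals, DESeq2 1.42.0, a 2-fold bound, other filters, left-out libraries, leading copies and total RNA series, 2-group fits and a replicate block.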

Additional observations from a re-analysis of the deposited data

Results flagged for a closer look

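In 14 of 159 groups of 4 to 6 libraries 1 value stood apart from the rest by Dixon's criterion at 95%, where chance alone flags about 1 in 20 groups. Of these, 7 were in ORF1p RIP 3. There the share of repeat reads in hAT-Tip100 was 0.315%, against 0.387 to 0.397% in the other libraries of the group, MER115 had 152.7 CPM (others 205 to 210) and Zaphod 312 CPM (others 217 to 233). Single copies stood apart in the same library: MamTip2 in TUNAR at 8.85 CPM (24.6 to 26.4), Arthur1 in MAP4K3-DT at 6.437 CPM (1.495 to 2.05) and 7.563 CPM (3.11 to 3.65), and MER97d in SCAF4 at 32.18 CPM (2.99 to 6.23).

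MamRep488 had 34.38 CPM in ORF1p RIP 2, against 29.98 to 30.3 CPM in the others. The FordPrefect copy on chr2 had 0.1067 CPM in ORF1p RIP 1, 1 count, and 0 in the others. In ORF2p RIP 3 the MER97a copy near TUNAR had 0.5232 CPM, with 0 in the others, and the Arthur1B copy in ZNF385D had 17.27 CPM, against 6.24 to 6.51 CPM. The Zaphod3 copy in MAGEA3-DT had 9.463 CPM in ORF2p RIP 2, against 12.6 to 12.8 CPM. In total RNA the MamTip1 copy in LOC124900404 had 0.2049 CPM in library 6 (others at most 0.0630), and the MER115 copy near that gene had 0.06299 CPM in library 5 and 0 in the others. The part of depth, scaling or handling in these values was not tested.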

How the results depend on the processing

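Of 6114 values of single subfamilies and copies under other settings, 5752 kept direction and side of the threshold, 166 became called, 176 lost their call and 20 turned. With library totals, ORF2p RIP over mock IP gave 4 higher and 15 lower subfamilies, ORF1p RIP over ORF2p RIP 11 and 8, ORF1p RIP over total RNA 5 higher, ORF2p RIP over total RNA 3 and 21, mock IP over total RNA 5 lower, and ORF2p RIP over mock IP 56 lower copies. That scaling turned Arthur1A over the mock IP (-0.081) and over total RNA (-0.31) in the ORF2p RIP, and over total RNA MER91C (-0.12), MER96B (-0.28), MamRep4096 (-0.24) and MamTip2 (-0.14), and MamRep4096 between the RIPs (0.019).

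A bound of 2-fold left 2 higher and 2 lower subfamilies in ORF1p RIP over mock IP, 2 and 1 in ORF2p RIP over mock IP, 1 and 3 in ORF1p RIP over ORF2p RIP, 1 and 2 in ORF1p RIP over total RNA and 1 and 0 in ORF2p RIP over total RNA. Without leading copies, ORF2p RIP over mock IP had 4 higher and 2 lower and mock IP over total RNA 0 higher. These copies turned, in the ORF2p RIP over the mock IP, Arthur1A (-0.12), MER91B (-0.13) and MamTip2 (-0.024), over total RNA MER91B (-0.013), MamTip2 (-0.066) and ORSL (-0.012), in the ORF1p RIP over total RNA MER91C (0.25), and UCON132b between the RIPs (-0.71).

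DESeq2 gave 8 lower in ORF2p RIP over mock IP and 4 higher and 2 lower in mock IP over total RNA. Fits of only the 2 groups gave 14 higher and 8 lower in ORF2p RIP over mock IP, and, for copies, 51 higher and 34 lower of 96 in ORF1p RIP over mock IP and 29 and 40 of 82 in ORF1p RIP over ORF2p RIP, where fewer copies passed the filter. At a min.count of 20 the 866 copies tested gave 231 higher and 410 lower in ORF1p RIP over mock IP, 91 and 74 in ORF2p RIP over mock IP and 221 and 417 between the RIPs; at 100 the 100 copies tested gave 39 and 48, 31 and 9, and 27 and 56. Against series bl alone the mock IP had 9 higher and 10 lower; MER96 in the ORF2p RIP turned (0.28). Against series b alone Arthur1 (0.31) and Zaphod3 (0.27) in the ORF2p RIP and MER96 (-0.47) and Zaphod (0.018) in the ORF1p RIP turned. The cause of these changes was not tested, except where fewer samples or copies enter.

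Leaving out 1 library at a time moved the lower calls in ORF2p RIP over mock IP between 1 and 7, those in ORF2p RIP over total RNA between 3 and 6, and the mock IP over total RNA between 1 and 7 higher and 0 and 6 lower. Without the 10 leading copies the family's share averaged 0.355% in the ORF1p RIP and 0.308% in the ORF2p RIP, against 0.383% in the mock IP and 0.415% in total RNA. The ORF1p RIP libraries (0.370, 0.374, 0.296 and 0.381%) then overlapped those of the mock IP (0.372, 0.388 and 0.389%). The ORF2p RIP libraries, at most 0.317%, did not. With all copies, the share within the DNA class was 3.61% and 4.75%, against 5.03% and 4.61%. Same-numbered libraries did not all deviate together (correlations from -0.47 to 0.45), and the numbers were not used to pair samples in the main fits. Such correlations cannot tell whether same-numbered libraries share a culture or extract, which is not known. A replicate block gave 3 lower in ORF2p RIP over total RNA and changed 15 of 261 single calls. The median copy held 3 reads, so single copies could be tested for 264 of 30410 only.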
